A study of Mus musculus with 8 samples.

Results

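Hyaluronan, the long unsulfated sugar chain of the pericellular matrix, is handled by a small set of enzymes and binding proteins, and 10 of their genes are described here in mouse mammary tumors. They are the 3 hyaluronan synthases Has1, Has2 and Has3, the hyaluronidases Hyal1 and Hyal2, the hyaluronan-degrading protein Cemip, the receptor Cd44, the hyaluronan-binding proteins Vcan (versican) and Tnfaip6 (TSG-6), and Prg4 (lubricin). Members were chosen by name, with earlier results of these data known, and each was read from the probe set that lists its symbol alone. This gave a value for 9 of the 10 listed genes, of 19937 genes on the array with such a probe set. Hyal1 shared both of its probe sets with Naa80 and was not analysed here.

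The tumors were grown from 4T1 cells, a transplantable mouse mammary carcinoma line, injected into the fourth mammary gland of BALB/c mice. For 4 tumors the gland had first received 1 dose of 20 Gy X-rays (preirradiated), and for 4 tumors it was untreated (nonirradiated). All 8 had grown for 18 days, and the comparison addresses how tumors of an irradiated bed differ from those of an untreated one. All tumors come from 1 cell line, and no sham treatment or mouse age is given in the labels. The number of mice behind the 8 tumors is not stated, so whether the tumors are independent of each other is not known. The p-values set a group difference against the spread between these tumors.

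Values are log2 signals from Affymetrix Mouse Gene 1.0 ST arrays, 1 array per tumor, normalized by the authors with robust multi-array averaging (RMA), so a difference of 1.0 is a 2-fold change. No detection call is used here, so whether a low signal stands above background is not known, and the number of arrays limits the precision. RNA came from whole tumor tissue, in which more cells of a type and more RNA per cell cannot be told apart. The 8 epithelial markers that fit the labelled carcinoma were measured in every tumor, with a mean of 10.08 to 10.60 in preirradiated and 10.01 to 10.22 in nonirradiated tumors. Preirradiated tumors 1 and 3 stood apart in 10 skeletal muscle genes, with means of 9.34 and 10.75. Those of preirradiated tumors 2 and 4 were 6.20 and 6.36, beside 6.15 to 6.48 in nonirradiated tumors. Differences of the members and of the pathway genes past the study's filter are also given without tumors 1 and 3 where that moved them by over 1.5 times.

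As background, hyaluronan synthases sit in the plasma membrane, join activated glucuronic acid and N-acetylglucosamine, and extrude the growing chain. Outside the cell the chain is held by receptors such as CD44 and by versican, a large chondroitin sulfate proteoglycan of loose and provisional matrix, while TSG-6 transfers protein chains of the inter-alpha-trypsin inhibitor family onto it. Hyaluronidases and CEMIP cut it to shorter pieces. Lubricin is a mucin-like glycoprotein best known from joint surfaces and tendon, where it works beside hyaluronan as a boundary lubricant.

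In Vcan and Tnfaip6 the lowest preirradiated tumor exceeded the highest nonirradiated one, and Vcan and Prg4 passed the study's own filter, both higher in preirradiated tumors. The Vcan signal was 1.60-fold and the Prg4 signal 2.10-fold higher, but the Prg4 difference lay mostly in tumors 1 and 3. Has2 and Tnfaip6 were each 1.31-fold higher without passing that filter. Has1, Has3, Hyal2, Cemip and Cd44 differed by 0.11 or less on the log2 scale.

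The promoters of the members whose groups did not overlap are shown because the data separate the tumors there. Each is the 250 bases before the gene start, 5′ to 3′ on the gene's own strand, from RefSeq on build GRCm38.p6, whose table held 7 of the 10 listed genes. The Vcan sequence is chr13:89742513-89742762 (minus strand) and the Tnfaip6 sequence is chr2:52037863-52038112 (plus strand). Capitals mark matches, on either strand, to the motifs searched, which were the core of the TATA box, written TATAAA, the GC box bound by factors such as Sp1, written GGGCGG, the AP-1 site of Fos and Jun proteins, written TGANTCA, and the site of TEAD factors, written GGAATG.
Vcan: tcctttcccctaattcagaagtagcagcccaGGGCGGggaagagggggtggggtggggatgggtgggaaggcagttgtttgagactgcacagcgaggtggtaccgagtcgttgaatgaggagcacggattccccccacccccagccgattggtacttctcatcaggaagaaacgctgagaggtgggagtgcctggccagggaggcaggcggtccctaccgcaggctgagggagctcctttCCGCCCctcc
Tnfaip6: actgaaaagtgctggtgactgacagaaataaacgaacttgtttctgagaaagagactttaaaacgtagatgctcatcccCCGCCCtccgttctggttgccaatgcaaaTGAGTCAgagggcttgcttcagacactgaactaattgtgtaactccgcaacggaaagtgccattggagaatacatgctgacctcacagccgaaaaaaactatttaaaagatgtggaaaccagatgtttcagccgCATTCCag
The Vcan window held 2 GC boxes, starting 219 and 10 bases before the gene start, and no other motif of the 4. The Tnfaip6 window held 1 AP-1 motif 142 bases before the start, 1 GC box 171 bases before it and 1 TEAD motif 8 bases before it. Matches did not overlap each other. Of 32851 windows of the same length in the table, 32.7% held a GC box, 6.75% an AP-1 motif, 12.6% a TEAD motif and 12.4% a TATA box. The GC content was 62.4% in the Vcan window and 44.4% in the Tnfaip6 window. A match of letters does not show that a factor binds there, and these windows were not measured in the tumors.

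The fit was made with limma (two-sided) over all 34738 probe sets with a mean of at least 4.0, and 0 of the 9 members passed a Benjamini-Hochberg adjusted p of 0.05. Of all probe sets 0% passed, while 5.8% had an unadjusted p under 0.05. The study's filter asks for an unadjusted p of at most 0.05, a mean of at least 4.0 and a log2 difference whose size is 0.4 or more. It was passed by 2 of the 9 members, both higher, where 0.642% of all probe sets passed it in either direction and 0.346% of named genes passed it as higher. Groups did not overlap for 2 of the 9, both higher, against 1.7% of named genes. The median difference of the 9 members was 0.11, against -0.0038 over named genes, and 7 of the 9 were above 0, as were 47.4% of named genes. Because the members were chosen with earlier results of these data known, these counts are not a test of the members against all genes.

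**Figure D1:**
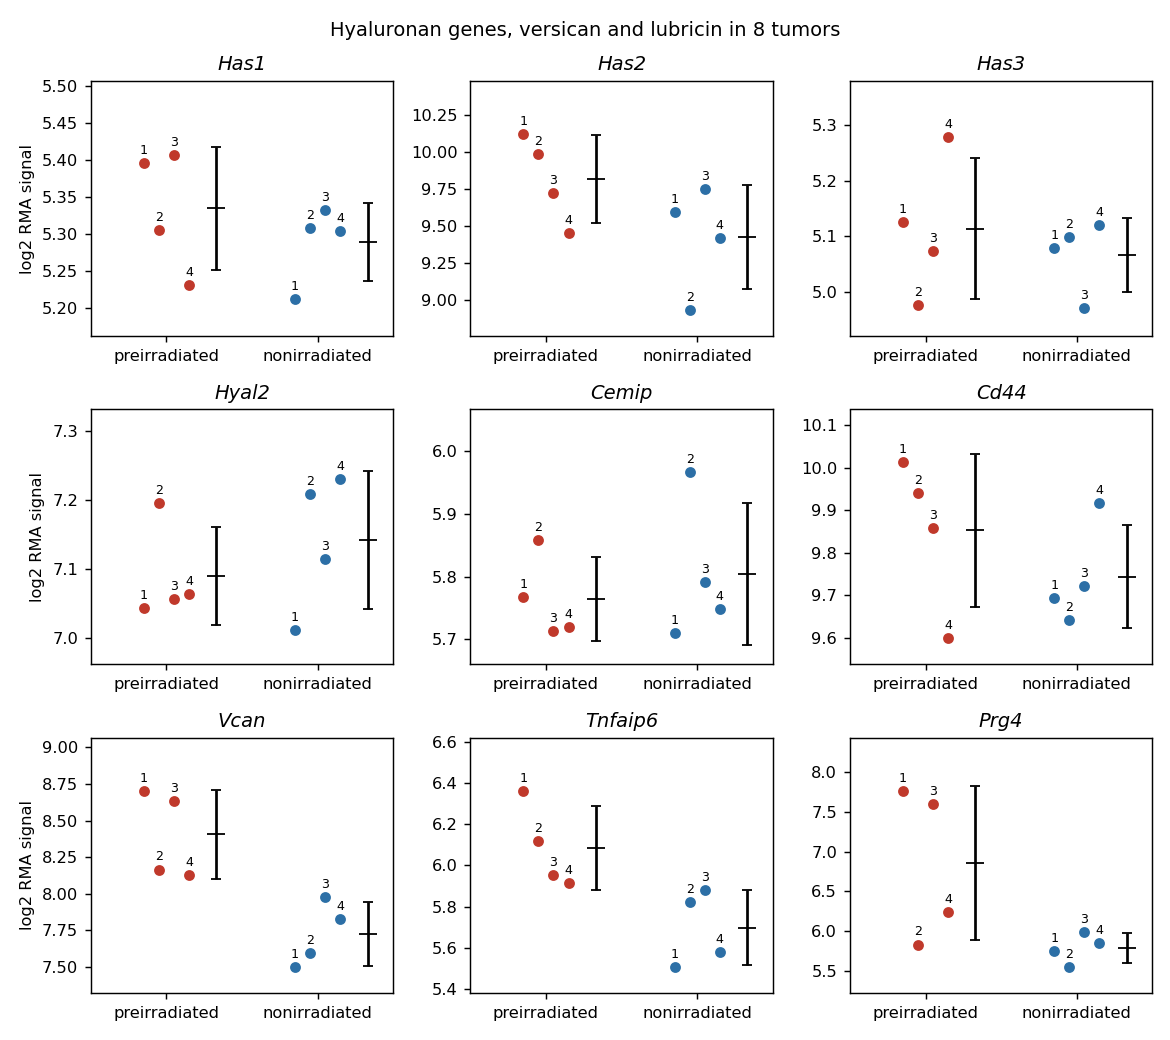
Log2 RMA signal of the 9 measured genes in each tumor, with preirradiated tumors in red and nonirradiated tumors in blue, numbered as in the labels, and bars giving mean ± SD (n = 4 each). Each panel has its own axis, and the groups separate for Vcan and Tnfaip6.

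Has2, the synthase that makes long hyaluronan chains in many connective tissues, had signals of 10.12, 9.98, 9.72 and 9.45 in preirradiated tumors 1 to 4, against 9.59, 8.93, 9.75 and 9.42 in nonirradiated tumors 1 to 4. Preirradiated tumors 1 and 2 lay above every nonirradiated tumor, preirradiated tumors 3 and 4 lay within the nonirradiated range, and nonirradiated tumor 2 was the lowest of all. The means were 9.82 ± 0.30 in preirradiated and 9.42 ± 0.35 in nonirradiated tumors (SD, n = 4 each). The difference was 0.39 (SE 0.20, 95% interval -0.063 to 0.85), with a limma adjusted p of 0.874. The value depended on single tumors: it was 0.23 without nonirradiated tumor 2, and it passed the study's filter without preirradiated tumor 4 (0.52) or nonirradiated tumor 3 (0.50).

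Has1 and Has3, the other synthases, showed no separation. Has1 had 5.40, 5.31, 5.41 and 5.23 in preirradiated tumors, against 5.21, 5.31, 5.33 and 5.30 in nonirradiated tumors. Has3 had 5.13, 4.98, 5.07 and 5.28 in preirradiated tumors, against 5.08, 5.10, 4.97 and 5.12 in nonirradiated tumors. Both genes varied by at most 0.31 over the 8 tumors, and the groups overlapped. The Has1 difference was 0.045 (95% interval -0.071 to 0.16) and turned to -0.021 without preirradiated tumors 1 and 3. The Has3 difference was 0.046 (95% interval -0.11 to 0.20) and turned to -0.0090 without preirradiated tumor 4. Neither interval reaches the 0.4 of the study's filter, but both signals were low, where RMA tends to understate changes.

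The genes that break hyaluronan down were also close between the groups. Hyal2, a membrane-anchored hyaluronidase that makes the first cuts, had 7.04, 7.19, 7.06 and 7.06 in preirradiated tumors, against 7.01, 7.21, 7.11 and 7.23 in nonirradiated tumors. Its difference was -0.052 (SE 0.060, 95% interval -0.19 to 0.086), and the groups overlapped. It was -0.012 without preirradiated tumors 1 and 3, and -0.095 without nonirradiated tumor 1 to -0.022 without nonirradiated tumor 4 when single tumors were left out. Cemip, which binds hyaluronan and is needed for its breakdown in human skin fibroblasts, had 5.77, 5.86, 5.71 and 5.72 in preirradiated tumors, against 5.71, 5.97, 5.79 and 5.75 in nonirradiated tumors. The Cemip difference was -0.039 (SE 0.063, 95% interval -0.18 to 0.11), and without nonirradiated tumor 2, the highest, it was 0.014. Without preirradiated tumors 1 and 3 the Cemip difference was -0.015. In both genes tumor 2 was the highest preirradiated tumor.

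Cd44, the main cell surface receptor for hyaluronan, had 10.01, 9.94, 9.86 and 9.60 in preirradiated tumors, against 9.69, 9.64, 9.72 and 9.92 in nonirradiated tumors. Preirradiated tumor 4 was the lowest of all 8, nonirradiated tumor 4 lay among the preirradiated tumors, and the groups overlapped. The difference was 0.11 (SE 0.097, 95% interval -0.11 to 0.33), which was 0.19 without preirradiated tumor 4, 0.17 without nonirradiated tumor 4 and 0.026 without preirradiated tumors 1 and 3. The array's probes lie along the exons of the gene, so the standard and the variant forms of CD44 are not separated. Nonirradiated tumor 4 also had the highest B cell marker mean, 5.79, against 5.03 to 5.07 in the other nonirradiated tumors. Its skin epidermis marker mean was 6.91, against 5.69 to 5.90 in those tumors and 7.05 in preirradiated tumor 3. The part of these cells in the Cd44 difference was not tested. Tumor 1 was the highest and tumor 4 the lowest preirradiated tumor in Has2, Cd44, Vcan and Tnfaip6 alike. Of the pericyte and smooth muscle markers, the same held for Rgs5, Pdgfrb, Cspg4, Acta2 and Cnn1. It did not hold for Tagln, highest in preirradiated tumor 2 (7.87), or Myh11, lowest in that tumor (6.53). How many of all genes share this order was not counted.

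Vcan, whose core protein binds hyaluronan at one end and carries chondroitin sulfate chains, had 8.70, 8.17, 8.64 and 8.13 in preirradiated tumors, against 7.50, 7.59, 7.98 and 7.83 in nonirradiated tumors. The groups did not overlap, with the gap between preirradiated tumor 4 and nonirradiated tumor 3, and preirradiated tumors 1 and 3 were the highest. The means were 8.41 ± 0.30 in preirradiated and 7.73 ± 0.22 in nonirradiated tumors (SD, n = 4 each). The difference was 0.68 (SE 0.16, 95% interval 0.31 to 1.05), with an unadjusted p of 0.00279 and a limma adjusted p of 0.651. By p, Vcan ranked 145 of 34738 probe sets. It passed the study's filter in each of 17 alternative settings, with differences from 0.42 to 0.78. The lowest, 0.42, was found without preirradiated tumors 1 and 3. A covariate for the skeletal muscle genes, which were high in those tumors alone, gave 0.45.

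Fibroblast genes were also higher in the tumors high in Vcan. Of 8 fibroblast markers 7 had a difference above 0, against 47.4% of named genes. The study's filter was passed as higher by 3, against 0.346% of named genes. These were the collagen chains Col1a1, Col1a2 and Col3a1, and the groups of the other markers overlapped. The mean signal of the 8 markers was 9.36 to 9.70 in preirradiated tumors, against 9.03 to 9.31 in nonirradiated tumors. Col3a1, a chain of collagen III, had 10.22, 9.74, 10.16 and 10.04 in preirradiated tumors, against 9.19, 9.62, 9.60 and 9.33 in nonirradiated tumors. Pdgfra, the receptor that marks many fibroblasts, went the other way, with a difference of -0.11 (SE 0.077). The 7 pericyte and smooth muscle markers had means of 7.82 to 8.22 in preirradiated tumors, against 7.71 to 7.82 in nonirradiated tumors. The part of these cells in the Vcan difference was not tested.

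**Figure D2:**
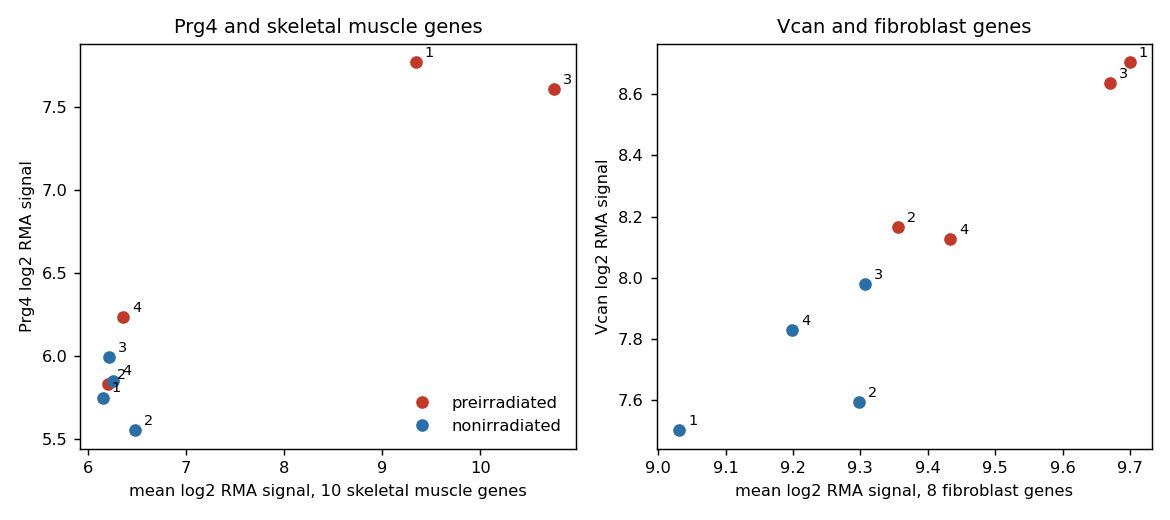
Left, Prg4 signal of each tumor against the mean signal of 10 skeletal muscle genes, and right, Vcan signal against the mean of 8 fibroblast genes, all log2 RMA, with preirradiated tumors in red and nonirradiated tumors in blue, numbered as in the labels. Preirradiated tumors 1 and 3 are highest in both panels, and for Vcan the other preirradiated tumors, at 8.17 and 8.13, also lie above the nonirradiated tumors.

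Tnfaip6, the secreted hyaluronan-binding protein TSG-6 that inflammatory signals induce in many cells, had 6.36, 6.12, 5.95 and 5.91 in preirradiated tumors, against 5.51, 5.82, 5.88 and 5.58 in nonirradiated tumors. The groups did not overlap, but the gap between preirradiated tumor 4 and nonirradiated tumor 3 was narrow. The means were 6.09 ± 0.20 in preirradiated and 5.70 ± 0.18 in nonirradiated tumors (SD, n = 4 each), a difference of 0.39 (SE 0.12, 95% interval 0.11 to 0.66) with an unadjusted p of 0.0115 and a limma adjusted p of 0.773. Its size fell just short of the 0.4 the study's filter asks for, and it passed without preirradiated tumor 3 (0.43), preirradiated tumor 4 (0.45), nonirradiated tumor 2 (0.43) or nonirradiated tumor 3 (0.45). Without preirradiated tumors 1 and 3 the difference was 0.32.

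Cell type markers went both ways beside Tnfaip6. The 8 macrophage and monocyte markers were all below 0, with means of 10.32 to 10.52 in preirradiated and 10.47 to 10.65 in nonirradiated tumors, and 6 of the 8 neutrophil markers were below 0, with means of 6.69 to 7.47 in preirradiated and 6.82 to 7.80 in nonirradiated tumors. Above 0 were 7 of the 8 fibroblast markers and 6 of the 7 pericyte and smooth muscle markers, against 47.4% of named genes. The part of any of these cells in the Tnfaip6 difference was not tested.

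Prg4 had 7.77, 5.83, 7.61 and 6.23 in preirradiated tumors, against 5.75, 5.55, 5.99 and 5.85 in nonirradiated tumors. Preirradiated tumors 1 and 3 lay far above the rest, tumor 4 lay slightly above the nonirradiated range and tumor 2 within it, so the groups overlapped. The means were 6.86 ± 0.97 in preirradiated and 5.79 ± 0.19 in nonirradiated tumors (SD, n = 4 each), and the preirradiated SD was the largest of the 9 members in either group. The difference was 1.07 (SE 0.42, 95% interval 0.10 to 2.04), with an unadjusted p of 0.0342 and a limma adjusted p of 0.836. The call of the study's filter ended on leaving out preirradiated tumor 1 (0.77), preirradiated tumor 3 (0.82), nonirradiated tumor 1 (1.06), nonirradiated tumor 2 (0.995) or nonirradiated tumor 4 (1.10).

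The tumors high in Prg4 were the tumors high in skeletal muscle genes. All 10 muscle markers had a difference above 0 and 0 passed the study's filter, and Acta1, the skeletal muscle actin, had 11.37, 7.08, 12.92 and 7.60 in preirradiated tumors, against 7.08 to 7.60 in nonirradiated tumors. Without tumors 1 and 3 the Prg4 difference was 0.25 (unadjusted p = 0.161), and with the muscle mean as a covariate it was 0.32 (unadjusted p = 0.206). The muscle mean was high in tumors 1 and 3 alone, so the covariate largely repeats leaving them out. The orders differed within the pair, with Prg4 higher in tumor 1 and the muscle mean higher in tumor 3. Adipocyte markers were also highest in preirradiated tumor 1, with a mean of 7.72, against 6.12 to 6.28 in the other preirradiated tumors and 5.99 to 6.40 in nonirradiated tumors.

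Tissues known for lubricin were followed by 10 markers of tendon, synovium, cartilage and mesothelium. Of these 9 had a difference above 0, with a median of 0.059, and 0 passed the study's filter. Their means were 6.61, 6.54, 6.83 and 6.67 in preirradiated tumors 1 to 4, against 6.49 to 6.60 in nonirradiated tumors. Preirradiated tumors 1, 3 and 4 thus lay above the nonirradiated range. Tnmd, the tendon protein tenomodulin, lay between 5.30 and 5.42 in all 8 tumors. Thbs4, a thrombospondin of tendon and muscle, was 7.60 in preirradiated tumor 3, against 6.13 to 6.27 in the other preirradiated tumors and 5.89 to 6.14 in nonirradiated tumors. The part of these tissues in the Prg4 difference was not tested.

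**Figure D3:**
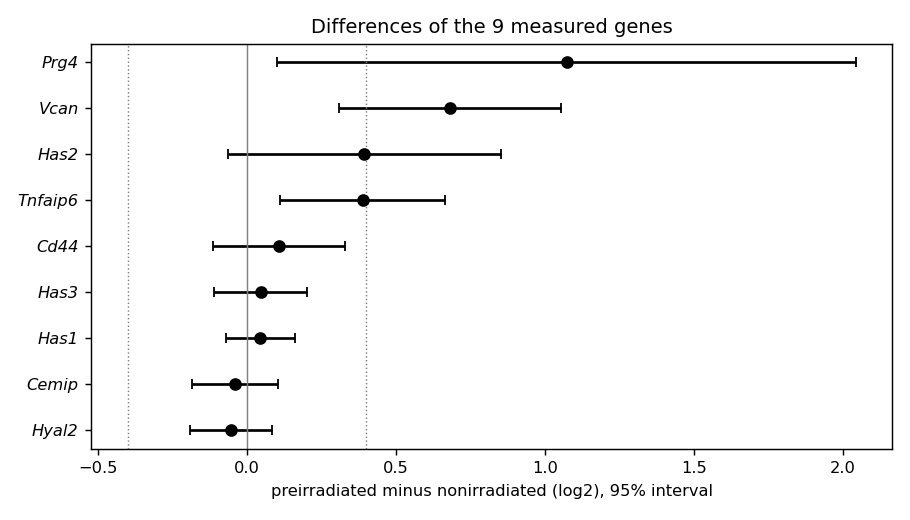
Differences between preirradiated and nonirradiated tumors on the log2 scale with 95% intervals from limma (n = 4 each), for the 9 measured genes, with dotted lines at the 0.4 of the study's filter. The intervals of Prg4, Vcan and Tnfaip6 lie above 0 before correction for multiple testing, and those of the other 6 genes include 0.

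For the 3 members that varied by at least 1.0 over the 8 tumors, the most similar of 16907 other named genes were found by the root mean square difference of centred log2 profiles. Closest to Vcan were Ccdc80, a secreted matrix protein, at 0.098, Svep1, a large cell adhesion protein, at 0.12, and Aebp1, a collagen-binding carboxypeptidase-like protein, at 0.13, beside a standard deviation of 0.44 for Vcan itself. Ccdc80 had 9.39, 9.11, 9.36 and 8.76 in preirradiated tumors, against 8.23, 8.26, 8.71 and 8.42 in nonirradiated tumors. Closest to Has2 were the gelatinase Mmp9 (0.12), the cytokine Il1a (0.13) and the small proteoglycan Bgn (0.15), against a standard deviation of 0.37 for Has2. Mmp9 had 11.38, 11.37, 11.17 and 10.80 in preirradiated tumors, against 10.77, 10.52, 11.09 and 10.92 in nonirradiated tumors. Closest to Prg4 were Fxyd1 (0.35), a regulator of the sodium pump, Apobec2 (0.36) and the muscle AMP deaminase Ampd1 (0.37), against a standard deviation of 0.87 for Prg4, so these fits were looser. Apobec2, a cytidine deaminase family member of muscle, had 6.65, 5.21, 7.62 and 5.24 in preirradiated tumors, against 5.15 to 5.39 in nonirradiated tumors.

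The other genes of hyaluronan and versican handling were taken from 8 lists by role, with 73 genes listed and 69 measured. These lists were also chosen with earlier results known, so the counts below do not test them against all genes. Of the 69, 3 passed the study's filter, all higher (Gfpt2, Itih5 and Adamts5), where 0.487% of named genes passed it in either direction. Groups did not overlap for 6 genes that were higher and 2 that were lower, against 1.7% and 1.95% of named genes. With limma 0 passed the adjusted threshold and 13 had an unadjusted p under 0.05 (10 higher and 3 lower), where 5.66% of named genes did. The median difference was 0.018 and 43 of the 69 differed by less than 0.1. None of the 3 calls remained without preirradiated tumor 1, without both tumors 1 and 3, or with the muscle covariate, and 1 remained without nonirradiated tumor 1.

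**Figure D4:**
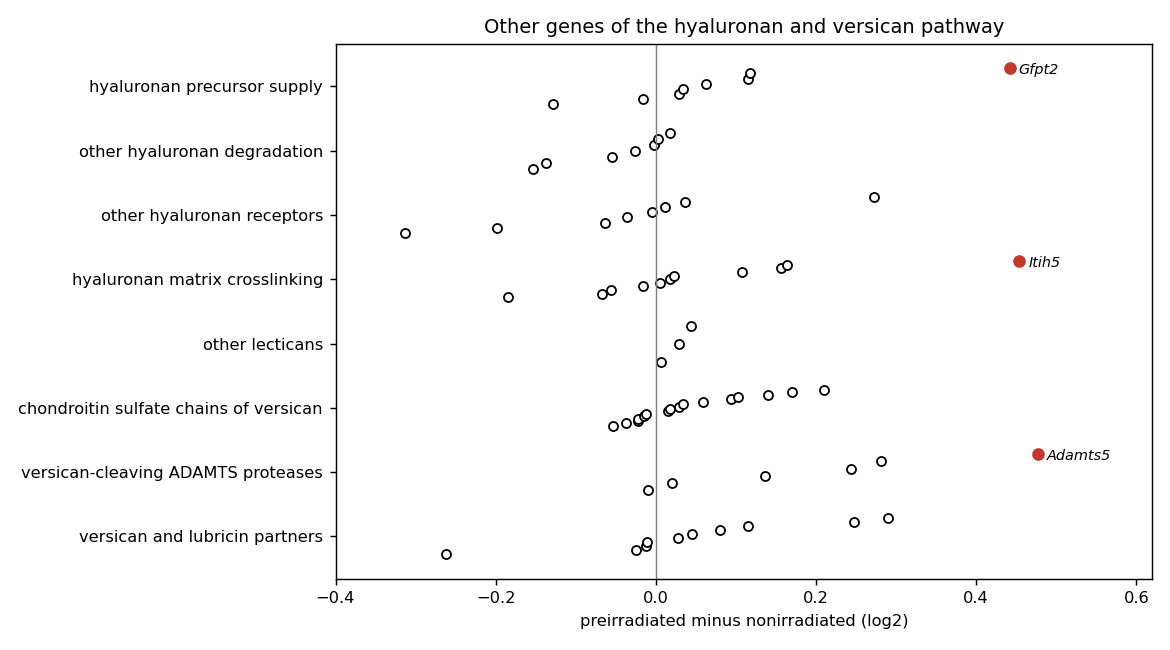
Differences between preirradiated and nonirradiated tumors on the log2 scale for 69 further genes, 1 circle per gene, grouped by role, with filled circles for the 3 past the study's filter. Most circles lie within 0.1 of 0, and the filled ones lie between 0.44 and 0.48.

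In the supply of hyaluronan precursors, Gfpt2, an enzyme of the first step of the hexosamine route to UDP-N-acetylglucosamine, had 6.93, 6.35, 6.66 and 6.22 in preirradiated tumors, against 5.98, 6.07, 6.22 and 6.12 in nonirradiated tumors. The groups met at preirradiated tumor 4 and nonirradiated tumor 3, without overlap, and the difference was 0.44 (SE 0.15), or 0.31 without preirradiated tumor 1 and 0.19 without tumors 1 and 3. Of the 8 genes of this list 1 passed the study's filter and 6 had a difference above 0. Ugdh, which makes UDP-glucuronic acid and was named after its value was seen, differed by 0.034 (SE 0.064).

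Among proteins that join or cross-link hyaluronan in the matrix, 1 of 11 passed. Itih5, an inter-alpha-trypsin inhibitor heavy chain, had 7.15, 6.28, 6.59 and 6.23 in preirradiated tumors, against 5.97, 6.09, 6.21 and 6.19 in nonirradiated tumors. Preirradiated tumor 1 stood high, and the groups did not overlap by a small gap. The Itih5 difference was 0.45 (SE 0.19). Leaving out preirradiated tumor 1 brought it to 0.26, and leaving out tumors 1 and 3 to 0.14. It also missed the filter without preirradiated tumor 3 or any 1 nonirradiated tumor (0.41 to 0.49), with p above the limit, and with a further quantile normalization, arrays centred on their median, the replicate number as a block or the muscle covariate. In all it passed in 6 of 17 alternative settings. The 3 other lecticans, the proteoglycan family of versican, differed by at most 0.044, the value of Ncan.

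The proteases that cut versican had the highest list median, 0.19, with 5 of 6 above 0. Adamts5, an aggrecanase that also cleaves versican, had 6.54, 5.89, 6.19 and 5.84 in preirradiated tumors, against 5.38, 5.67, 5.71 and 5.82 in nonirradiated tumors. It differed by 0.48 (SE 0.16), passed the study's filter, and missed it without preirradiated tumor 1 (0.34), nonirradiated tumor 1 (0.39) or preirradiated tumors 1 and 3 (0.23). It also missed the filter with the muscle covariate (0.27) and with the replicate number as a block (0.48, unadjusted p = 0.0553), and passed in 12 of 17 alternative settings. Adamts4, a second aggrecanase, had 8.86, 8.65, 8.68 and 8.61 in preirradiated tumors, against 8.30, 8.40, 8.55 and 8.59 in nonirradiated tumors, a difference of 0.24 (SE 0.081) that did not reach the filter's size. The groups of both genes lay just apart.

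Among the partners of versican and lubricin, 0 of 10 passed the filter. Fbln2, the matrix protein fibulin 2, which binds versican, had 11.18, 10.85, 11.00 and 10.95 in preirradiated tumors, against 10.60, 10.63, 10.80 and 10.79 in nonirradiated tumors. The lowest preirradiated tumor exceeded the highest nonirradiated one, and the difference was 0.29 (SE 0.079, unadjusted p = 0.00604, limma adjusted p = 0.720). The 16 enzymes of chondroitin sulfate chains had a median difference of 0.023 and 0 past the filter, with Xylt1, which starts the chain, at 0.21 (SE 0.16) and Chsy3, a chain polymerase, at 0.14 (SE 0.055).

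The 8 genes listed as other receptors went both ways, with 3 above 0, 5 below, a median of -0.020 and 0 past the study's filter. Layn, the hyaluronan receptor layilin, named after its values were seen, had 6.36, 6.05, 6.09 and 5.83 in preirradiated tumors, against 5.78, 5.70, 5.91 and 5.86 in nonirradiated tumors. Its groups overlapped, and the difference of 0.27 (SE 0.10, unadjusted p = 0.0305) did not reach the size the filter asks for. Itgam, the integrin chain CD11b of myeloid cells, had 10.03, 10.08, 10.13 and 10.04 in preirradiated tumors, against 10.21, 10.27, 10.25 and 10.34 in nonirradiated tumors. Its groups did not overlap, with a difference of -0.20 (SE 0.041, unadjusted p = 0.00126, limma adjusted p = 0.620). Tlr4, a receptor reported to respond to hyaluronan fragments, differed by -0.31 (SE 0.11). Of the 7 other genes of hyaluronan breakdown 0 passed the filter, and Hexa, a lysosomal hexosaminidase, differed by -0.15 (SE 0.053). Lyve1, the hyaluronan receptor of lymphatic vessels and some macrophages, named after its values were seen, had 7.88, 6.75, 7.95 and 7.77 in preirradiated tumors, against 6.89, 7.62, 7.97 and 8.02 in nonirradiated tumors, with 1 low tumor in each group. Itgam is a myeloid gene that was listed among the receptors without a measure of hyaluronan binding, and the macrophage markers above were lower as well. The part of these cells in the Itgam difference was not tested.

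**Figure D5:**
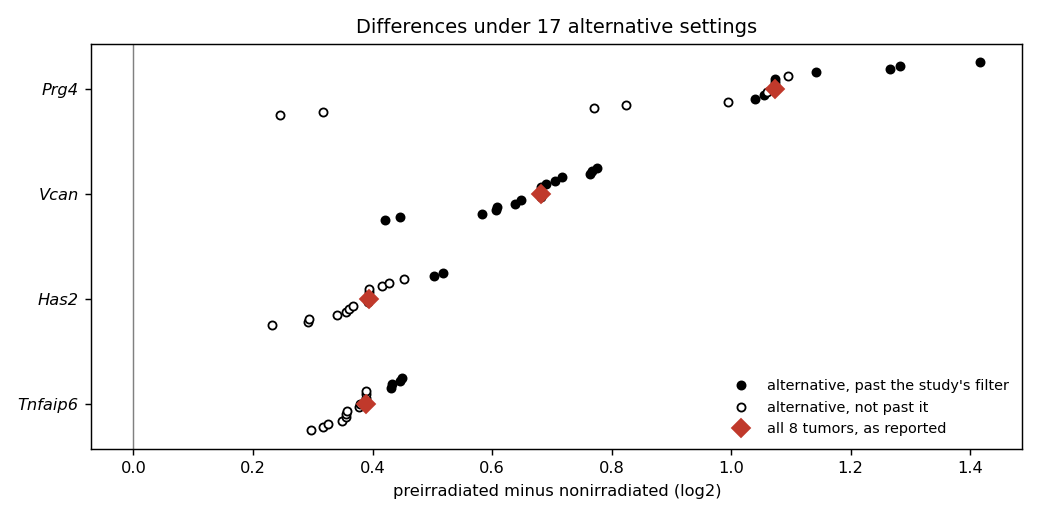
Differences between preirradiated and nonirradiated tumors on the log2 scale for Prg4, Vcan, Has2 and Tnfaip6 in the fit of all 8 tumors (diamonds) and under 17 alternative settings (circles, filled where the study's filter was passed). Vcan passed in all 17, Prg4 in 10, Tnfaip6 in 4 and Has2 in 2, and the lowest Prg4 values are those that leave out or adjust for the muscle-rich tumors.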

How the data were processed

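Tumor RNA from 8 samples, grouped by their titles, was measured on 1 array each. The deposited values are log2 expression values that the authors made by RMA with the affy package, per the series' design text, and the submitters' processing notes also name R 2.15.3. No chip description file is named in the labels. RMA makes the arrays alike, so a change in total RNA cannot be seen, and it tends to understate changes of weak signals.

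The table held 34760 probe sets, of which 22 had a mean under 4.0 and were left out. Platform annotation named 1 symbol for 21640 probe sets, several for 1321 and none for 11799, and Entrez IDs checked against RefSeq (GRCm38.p6) changed 0 symbols. A gene was read from the probe set listing it alone and, of several, the one brightest on average. The fit used limma 3.58.1 in R 4.3.3 (lmFit, eBayes) on all 8 tumors, preirradiated minus nonirradiated, with Benjamini-Hochberg adjustment over 34738 probe sets, and was tested on simulated data.

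Members and lists were chosen with earlier results of these data known. All members are named, as are the genes of each list past the study's filter, with the smallest p or with the largest difference, and for each member with a range of at least 1.0 the 3 closest genes. Alternatives covered the mean limit, variance model, normalization, centring, array weights, replicate block, 1 probe set per gene, a muscle covariate, and tumors left out.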

Additional observations from a re-analysis of the deposited data

Results flagged for a closer look

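Among 74 sets of 4 tumors (each gene whose values are given, in each group), 4 held a tumor far from the other 3, where chance flags about 1 in 20. Hyal2 was 7.19 in preirradiated tumor 2, against 7.06 in the nearest preirradiated tumor, a gap of 0.862 of the group's whole range, and the nonirradiated tumors reached 7.23. Lyve1 was 6.75 in the same tumor, against 7.77 in the nearest preirradiated tumor, a gap of 0.848 of the range. Thbs4 was 7.60 in preirradiated tumor 3, one of the muscle-rich tumors, against 6.27 in the nearest preirradiated tumor, a gap of 0.904 of the range. Fxyd1, one of the genes closest to Prg4, was 6.97 in nonirradiated tumor 2, against 6.70 in the nearest nonirradiated tumor, a gap of 0.890 of the range.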

How the results depend on the processing

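In all 17 alternatives 0 probe sets passed the adjusted threshold, beside 1249 (1 probe set per gene, 19937 tested) to 2926 (arrays centred on their median) at an unadjusted p under 0.05. Probe sets past the study's filter numbered 223, and 181 to 385 when 1 tumor was left out (335 without preirradiated tumor 2 and 385 without preirradiated tumor 4). They were 170 higher and 53 lower, and 121 higher and 70 lower with each array centred on its median, which shifted the median of all probe sets by less than 0.1. Members past the filter numbered 2, and 1 to 4 when 1 tumor was left out, 1 with the muscle covariate and 1 without preirradiated tumors 1 and 3. Further pathway genes past it numbered 3, and 0 to 3 when 1 tumor was left out, 0 with the muscle covariate and 0 without tumors 1 and 3. The cause was not tested.

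Tumor numbers did not pair the groups: 0 of 4 same-numbered pairs had deviations correlated over 0.1 (-0.29 to -0.075), and 0 of 8 tumors were closest to their own number. With the replicate number as a block 1 pathway gene, 2 members and 193 probe sets passed the filter.

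Has1 changed sign with the muscle covariate (-0.018) and without tumors 1 and 3 (-0.021). When 1 tumor was left out, Has3 ran from -0.0090 to 0.092 and Cemip from -0.071 to 0.014. Has2, Hyal2, Cd44, Vcan, Tnfaip6 and Prg4 kept their direction in all 17 alternatives. No member had a further probe set of its own, so no second probe set could be compared.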
